A study of Mus musculus with 11 samples.

Results

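The regions described here are 258 gene-free segments of the mouse genome. Each is a stretch of 1 Mb of chromosomes 1 to 19 of the mm9 build, counted from position 0, in which no protein-coding gene of the GENCODE vM1 annotation starts and in which the midpoint of at least 1 peak of 10 ChIP-seq peak lists lies. They were 258 of 2482 segments (10.4%) and contained 256.8 Mb of sequenced bases. Another 65 segments without a protein-coding start had no peak in any list, and no base of these is sequenced in mm9. The other 2159 segments hold at least 1 protein-coding start and at least 1 peak, are called gene-containing, and are the comparison throughout.

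The lists give the binding regions of 5 transcription factors (TFs), ZIC2, OTX2, SOX2, POU5F1 and POU3F1, in epiblast stem cells (EpiSCs) of mouse strain 129/Sv, which are cultured cells that resemble the epiblast of the egg cylinder. The cells were grown without feeders with activin (20 ng/ml) and Fgf2 (10 ng/ml), or were freed from activin for 18 h before harvest (activin-free EpiSCs). In all groups the TF was an exogenous protein with a tag (BLRP), made from a transiently transfected plasmid together with the biotin ligase BirA and recovered on streptavidin, so the peaks are those of cells that also expressed the tagged protein. Each TF had a single library per culture, the reads behind each list are not counted in it, and no test between cultures could be run. Intervals below are 95% intervals and cover counting error only, and peaks of 1 segment are not independent of each other.

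Long stretches without genes are in general poor in G and C, are replicated late and lie near the nuclear lamina in many cell types. Some are crossed by the introns of very long genes, many of which encode adhesion and synaptic proteins of neurons, and others hold distal enhancers of developmental genes that start beyond their border. ZIC2 is a zinc finger protein that reads GC-rich words, OTX2 is a paired-type homeodomain protein, SOX2 has an HMG box that bends AT-rich DNA, and POU5F1 (Oct3/4) and POU3F1 (Oct6) share the POU domain, which reads the octamer ATGCAAAT.

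Examples of binding sequences in gene-free segments are shown first, since base composition and short words recur in all results below. For each TF the sequence is the window that reaches 100 bp to either side of the midpoint of the EpiSC peak with the highest score among those narrower than 1000 bp that lie in a gene-free segment, hold a word of the TF in the window and overlap a peak of the same TF in activin-free EpiSCs. Capitals mark the words searched on both strands: CAGCAGG for ZIC2, GGATTA for OTX2, ACAAAG or ACAATG for SOX2, and ATGCAAAT or ATGCATAT for POU5F1 and POU3F1. Positions are in mm9 and were read from the plus strand.
ZIC2 at chr9:17679323-17679523 (plus strand): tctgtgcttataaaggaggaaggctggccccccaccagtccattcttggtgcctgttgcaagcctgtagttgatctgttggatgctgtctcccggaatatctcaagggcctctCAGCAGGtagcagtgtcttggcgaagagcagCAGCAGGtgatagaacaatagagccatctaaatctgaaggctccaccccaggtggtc
OTX2 at chr4:69438860-69439060 (plus strand): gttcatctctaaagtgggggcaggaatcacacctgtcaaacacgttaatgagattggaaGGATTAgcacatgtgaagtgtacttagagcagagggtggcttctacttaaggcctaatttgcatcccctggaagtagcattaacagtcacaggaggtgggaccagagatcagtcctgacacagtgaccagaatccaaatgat
SOX2 at chr10:16922928-16923128 (plus strand): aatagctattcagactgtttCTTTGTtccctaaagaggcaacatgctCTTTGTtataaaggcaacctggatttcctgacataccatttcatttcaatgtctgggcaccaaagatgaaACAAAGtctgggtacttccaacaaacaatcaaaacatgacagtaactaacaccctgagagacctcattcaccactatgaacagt
POU5F1 at chr2:40175062-40175262 (plus strand): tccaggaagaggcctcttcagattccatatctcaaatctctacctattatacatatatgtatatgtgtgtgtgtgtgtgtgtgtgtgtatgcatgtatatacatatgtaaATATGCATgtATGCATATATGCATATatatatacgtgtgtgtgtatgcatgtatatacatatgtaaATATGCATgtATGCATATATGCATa
POU3F1 at chr11:38545661-38545861 (plus strand): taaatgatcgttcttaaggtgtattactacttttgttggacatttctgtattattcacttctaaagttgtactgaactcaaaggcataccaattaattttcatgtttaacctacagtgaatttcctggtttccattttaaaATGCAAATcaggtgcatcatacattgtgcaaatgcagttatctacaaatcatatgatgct

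None of these 5 windows lies in the body of a protein-coding gene. The ZIC2 peak (912 bp, score 1065, and 2405 in the activin-free list) was 417 kb from the nearest protein-coding start, that of Chordc1, and its window was 53.2% GC in a segment of 37.8% GC. The OTX2 peak (997 bp, scores 465 and 735) was 632 kb from Cdk5rap2 and was not shared with a peak of another TF. The SOX2 peak (891 bp, scores 485 and 1364) was 520 kb from Cited2, held 3 copies of ACAAAG and overlapped POU3F1 peaks of both cultures. The POU5F1 peak (995 bp, scores 791 and 1428.5) was 1093 kb from Ppp6c and held 7 partly overlapping matches of ATGCATAT, in stretches where purines and pyrimidines alternate. The POU3F1 peak (994 bp, scores 609 and 3100.0) was 1496 kb from Odz2, held 1 octamer and overlapped POU5F1 peaks of both cultures. The score is -10 log10 of the p-value of the peak caller and was at least 50 in every list.

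Gene-free segments occurred on all 19 chromosomes, from 4 on chromosome 19 to 24 on chromosome 1. Their GC content had a median of 37.5% (range 35.8 to 45.7%), against 42.2% in gene-containing segments (35.7 to 53.7%). By class of GC content, 93 gene-free segments were under 37%, 116 were 37 to 39%, 34 were 39 to 41% and 15 were 41% or more, whereas 1362 of the gene-containing segments were in the last class. The share of 32-base words found once in the genome, a measure of how well short reads can be placed, had a median of 79.9% in gene-free and 86.1% in gene-containing segments. Only 2 gene-free segments were under 50% by this measure, and they held 63 peaks of all lists together. The segments formed 189 runs, of which 137 were single segments, 37 were pairs, and the longest contained 4. They were not free of other annotated starts: 627 fell in them, with a median of 2 per segment, and 44 segments had no annotated start of any kind. Of the 627, 38 were starts of immunoglobulin V genes and the rest were those of non-coding genes or pseudogenes. Bodies of protein-coding genes that start elsewhere covered at least 50% of 30 segments (spanned), less of 37 (partly covered) and no base of 191 (unspanned).

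The 5 TFs differed in how many of their peaks lay in gene-free segments. ZIC2, the TF of GC-rich words, had the fewest, with 1808 EpiSC peaks, or 7.04 per Mb (95% interval 6.72 to 7.37), against 55.2 per Mb in gene-containing segments. OTX2 had 2791 peaks (10.9 per Mb, 10.5 to 11.3), against 46.0. The density of SOX2 peaks was 29.5 per Mb (28.8 to 30.1) against 25.3, and that of POU5F1 peaks was 29.2 (28.6 to 29.9) against 24.5. POU3F1 had 22557 peaks, or 87.8 per Mb (86.7 to 89.0), against 38.5. The higher densities of SOX2, POU5F1 and POU3F1 turned into lower ones when segments of equal GC content, in steps of 1%, were compared and pooled, as given below. The segments thus held 21.5% of the POU3F1 peaks on chromosomes 1 to 19 but 1.51% of the ZIC2 and 2.76% of the OTX2 peaks, with SOX2 (12.3%) and POU5F1 (12.6%) in between, on 10.7% of the sequenced bases.

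In activin-free EpiSCs ZIC2 again had the lowest and POU3F1 the highest density in gene-free segments. The densities per Mb there, with those of gene-containing segments second, were 6.56 and 49.3 (ZIC2), 20.3 and 49.2 (OTX2), 39.7 and 34.3 (SOX2), 67.4 and 47.8 (POU5F1), and 79.2 and 34.9 (POU3F1). Expressed as a ratio of the densities, gene-free to gene-containing, ZIC2 gave 0.128 (0.122 to 0.134) in EpiSCs and 0.133 (0.127 to 0.1395) in activin-free EpiSCs, and the ratio was under 1 on 19 of 19 chromosomes in both. For OTX2 the ratio was 0.236 (0.227 to 0.245) and 0.413 (0.401 to 0.424), also under 1 on all 19 chromosomes. POU3F1 gave 2.28 (2.25 to 2.31) and 2.27 (2.24 to 2.31), above 1 on 19 chromosomes in both cultures, but under 1 at equal GC content. SOX2, with 1.16 (1.14 to 1.19) and 1.16 (1.13 to 1.18), was above 1 on 14 and 15 chromosomes, ranged from 0.481 to 2.07 over chromosomes in EpiSCs, and was under 1 at equal GC content and in the 44 segments without any annotated start (0.871 and 0.874). POU5F1, with 1.195 (1.17 to 1.22) and 1.41 (1.39 to 1.43), was above 1 on 15 and 18 of them, and under 1 at equal GC content in both cultures, with 0.977 (0.919 to 1.04) in the 44 segments in EpiSCs.

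**Figure D1:**
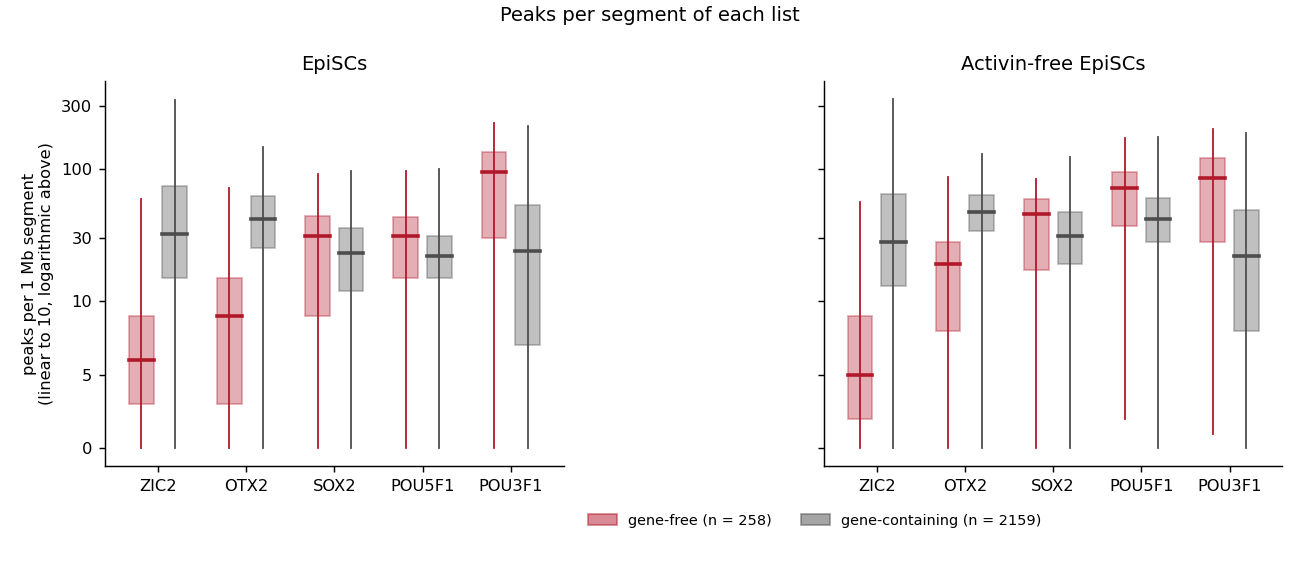
Peaks per 1 Mb segment of each TF in EpiSCs (left) and activin-free EpiSCs (right), for 258 gene-free (red) and 2159 gene-containing segments (gray). Boxes give the quartiles, thick lines the median and thin lines the lowest and highest segment. The axis is linear to 10 and logarithmic above. For ZIC2 and OTX2 the median of gene-free segments is below that of gene-containing segments. For SOX2, POU5F1 and POU3F1 it is above, but their pooled density ratios were under 1 at equal GC content in steps of 1%.

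In single segments the spread was wide. The number of EpiSC ZIC2 peaks in a gene-free segment ranged from 0 to 59 with a median of 6, and 22 segments had none. OTX2 ranged from 0 to 72 (median 9), SOX2 from 0 to 91 (median 31), POU5F1 from 0 to 97 (median 31) and POU3F1 from 0 to 221 (median 94.5). The highest POU3F1 value of any segment, 221, was in a gene-free one, the highest of a gene-containing segment being 210.

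Since gene-free segments are AT-rich, the densities were compared within classes of GC content. POU3F1 density followed GC content and hardly differed between the kinds of segment: under 37% GC it was 98.3 per Mb in gene-free and 106.7 in gene-containing segments, at 37 to 39% it was 98.5 and 98.4, at 39 to 41% it was 53.6 and 56.3, and at 41% or more it was 15.6 and 16.0. The POU5F1 ratio in these classes was between 0.857 and 0.967 in EpiSCs, and that of SOX2 was between 0.762 and 0.960. ZIC2 and OTX2 behaved differently. Under 37% GC their densities were low in both kinds, 3.73 and 4.07 per Mb for ZIC2 and 4.71 and 5.72 for OTX2, but with more GC the kinds of segment diverged. At 39 to 41% GC there were 8.70 ZIC2 peaks per Mb in gene-free segments and 17.3 in gene-containing segments (ratio 0.502, 0.445 to 0.566), and at 41% or more there were 28.7 and 79.9 (ratio 0.360, 0.326 to 0.396). OTX2 had 17.1 and 32.1 per Mb at 39 to 41% (ratio 0.533, 0.488 to 0.580) and 30.5 and 59.0 at 41% or more.

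The number of peaks expected if each gene-free segment had the density of gene-containing segments of the same GC content, in steps of 1%, in EpiSCs was 2591 (ZIC2), 4045 (OTX2), 8228 (SOX2), 8365 (POU5F1) and 24010 (POU3F1). The observed numbers were 0.698 (0.666 to 0.731), 0.690 (0.665 to 0.716), 0.920 (0.899 to 0.941), 0.897 (0.877 to 0.918) and 0.940 (0.927 to 0.952) of these. In activin-free EpiSCs the values were 0.730 (ZIC2), 0.782 (OTX2), 0.912 (SOX2), 0.925 (POU5F1) and 0.946 (POU3F1). On this scale all 10 lists were below 1, so the excess of SOX2, POU5F1 and POU3F1 peaks per Mb in gene-free segments was not present at equal GC content, while ZIC2 and OTX2 had the lowest values in both cultures. The class at 41% GC or more is broad, and gene-containing segments extend further up in it than gene-free ones.

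**Figure D2:**
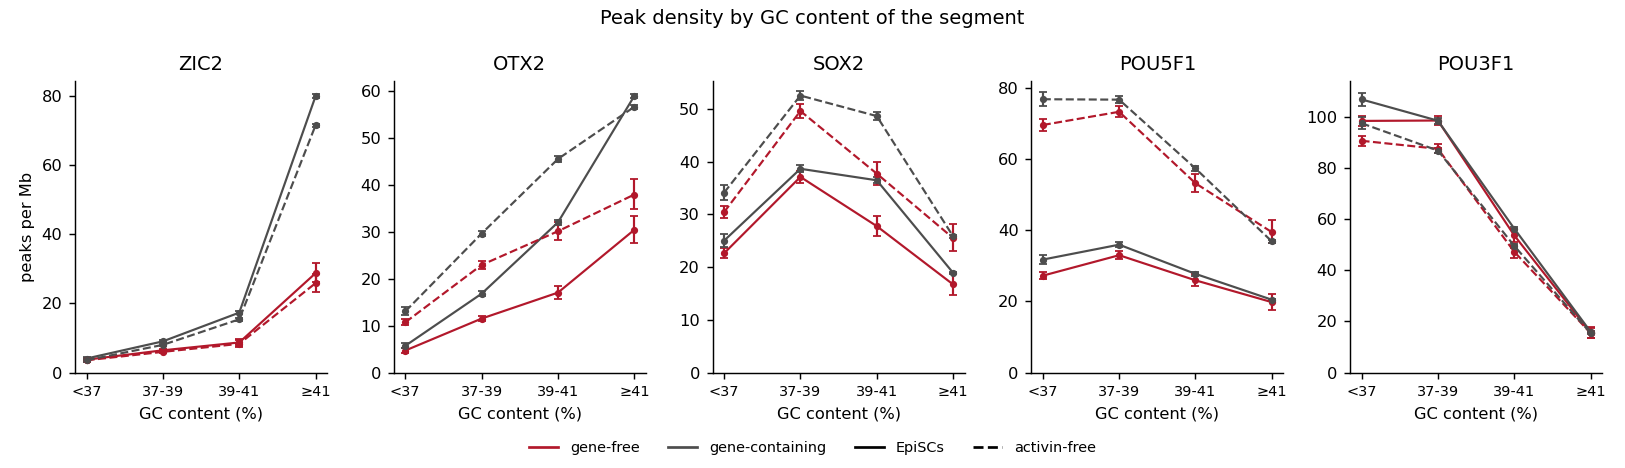
Peaks per Mb by the GC content of the segment, 1 panel for each TF, in gene-free (red) and gene-containing segments (gray) of EpiSCs (solid) and activin-free EpiSCs (dashed). Bars are 95% Poisson intervals; the POU3F1 lines nearly coincide, whereas the red ZIC2 and OTX2 lines stay below the gray ones above 37% GC.

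Gene-free segments of similar GC content differed widely in their number of peaks, and a cause of this was not tested. Among the 93 gene-free segments under 37% GC, the number of EpiSC POU3F1 peaks ranged from 1 to 221. There were 26 segments with under 20 such peaks (28.0%), 14 with 20 to 99 and 53 with at least 100 (57.0%). In the 72 gene-containing segments under 37% GC the shares were 18.1% and 56.9%. The classes were cut by the POU3F1 count of EpiSCs after its values were seen, so that count describes them only. Their GC content was nearly equal, with medians of 36.5% in the low and 36.6% in the high class, and so was the share of unique words (79.1 and 79.9%).

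The other lists moved with POU3F1 in these segments. In the low class the median number of EpiSC peaks was 0 for both ZIC2 and OTX2 and 1 for both SOX2 and POU5F1, and in the high class it was 5 (ZIC2), 6 (OTX2), 37 (SOX2) and 45 (POU5F1). The ranges of SOX2 did not overlap, at 0 to 6 in the low and 7 to 70 in the high class, nor did those of POU5F1, at 0 to 3 and 15 to 97. The 14 segments between these classes had 1 to 30 SOX2 peaks, which overlaps both, and 4 to 24 POU5F1 peaks, which overlaps the high class. The same ranges were not taken in gene-containing segments. In activin-free EpiSCs the medians of the low class were 0, 1, 2, 9 and 10 for ZIC2, OTX2, SOX2, POU5F1 and POU3F1, against 5, 17, 51, 104 and 136 in the high class. The low segments were thus poor in peaks of all 5 TFs in both cultures.

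The sequence words of the TFs were about as frequent in low as in high segments. The octamer ATGCAAAT occurred at a median of 130.5 per Mb in the low class and 136 in the high class, ATGCATAT at 111 and 107, ACAAAG or ACAATG at 1867 and 1880, GGATTA at 429 and 417, and CAGCAGG at 99.5 and 100 per Mb. Stretches of alternating purines and pyrimidines, 20 bp or longer, had a median of 191 per Mb in both. For comparison, all gene-free segments had medians of 126 octamers and 119 copies of CAGCAGG per Mb, and gene-containing segments 84 and 220.

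The low segments lay on 8 chromosomes, with 7 on chromosome 14, 5 on chromosome 3 and 5 on chromosome 16, and the 53 high segments lay on 17. Of the 26 low segments, 12 adjoined another low one and 1 adjoined a high one, and of the 53 high segments 17 adjoined another high one and 1 adjoined a low one. The quietest pair, at chr14:82000001-84000000 between Olfm4, which encodes a secreted glycoprotein, and Pcdh17, a protocadherin gene, had 0 ZIC2, 0 OTX2, 0 SOX2, 3 POU5F1 and 4 POU3F1 peaks in EpiSCs. The activin-free lists had 0, 1, 1, 15 and 3 peaks there, at 36.2% GC and 79.5% unique words. Another pair, at chr16:82000001-84000000 beyond the neural adhesion gene Ncam2, had 0, 3, 4, 0 and 11 EpiSC peaks. These pairs were picked after their values were seen.

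**Figure D3:**
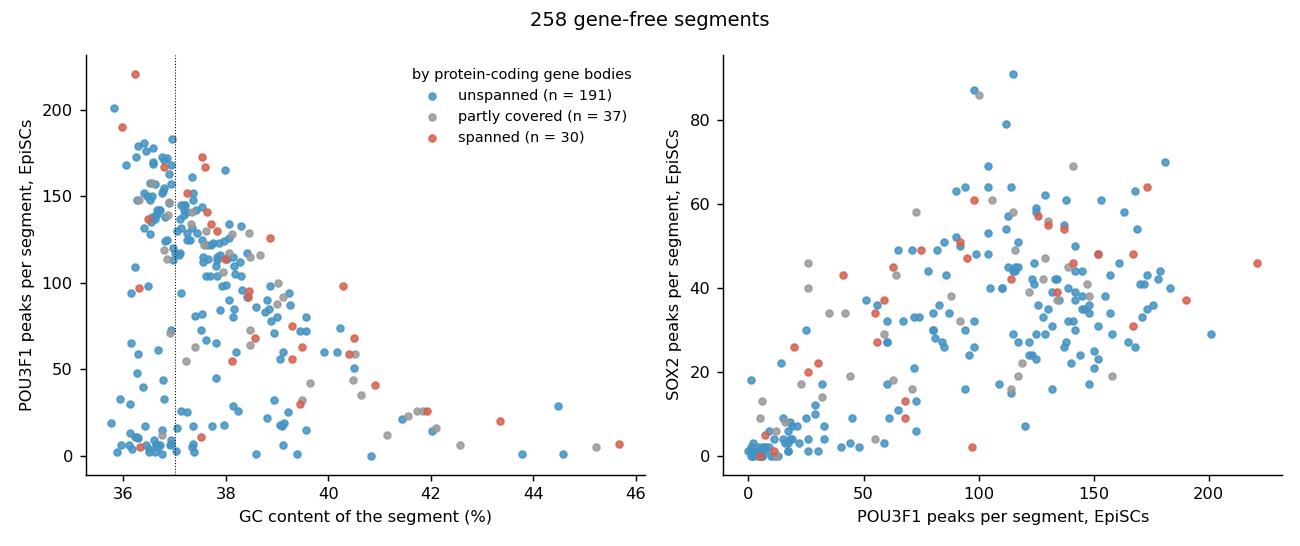
POU3F1 peaks per segment against the GC content of the segment (left) and SOX2 against POU3F1 peaks per segment (right) for the 258 gene-free segments in EpiSCs, colored by cover with protein-coding gene bodies. Below 37% GC (dotted line) 26 segments have under 20 POU3F1 peaks, 14 have 20 to 99 and 53 have at least 100. Those with under 20 POU3F1 peaks have few SOX2 peaks.

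Across all 258 gene-free segments, Spearman's rho between the numbers of EpiSC peaks of ZIC2 and the other TFs was 0.692 with OTX2, 0.489 with SOX2, 0.409 with POU5F1 and 0.237 with POU3F1. In gene-containing segments the same values were 0.791, -0.466, -0.321 and -0.727. OTX2 and POU3F1 likewise had a rho of 0.257 in gene-free and -0.514 in gene-containing segments. The segments share their libraries, and adjacent ones are alike: over 69 pairs of adjacent gene-free segments rho was 0.835 for SOX2 and 0.660 for POU3F1. GC content had a rho of 0.553 with ZIC2, 0.622 with OTX2, 0.162 with SOX2, 0.00802 with POU5F1 and -0.302 with POU3F1 within gene-free segments, where the range of GC content is narrow.

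Segments covered by a long gene over at least 50% of their length carried more peaks per Mb than unspanned ones, by little for POU3F1. In the 30 spanned segments OTX2 had 19.1 EpiSC peaks per Mb, against 8.29 in the 191 unspanned ones (ratio 2.31, 2.09 to 2.54), and ZIC2 had 9.57 against 5.76 (ratio 1.66, 1.45 to 1.89). The ratio was 1.27 (1.19 to 1.36) for SOX2, 1.37 (1.29 to 1.47) for POU5F1 and 1.07 (1.024 to 1.11) for POU3F1. The spanned segments had a median GC content of 38.3%, the unspanned 37.2%. At equal GC content, in steps of 1% and over the 29 spanned segments that had unspanned ones of the same step, the ratios were 1.68 (OTX2), 1.07 (ZIC2), 1.31 (SOX2), 1.42 (POU5F1) and 1.27 (POU3F1). The activin-free lists gave 1.63, 1.12, 1.27, 1.32 and 1.29 in this order. The 37 partly covered segments were more like the spanned ones in ZIC2 and OTX2 (11.6 and 17.4 per Mb) and less so in POU5F1 (28.9 per Mb, 38.3 in spanned and 27.9 in unspanned). POU3F1 was lower in partly covered than in unspanned segments, at 81.6 against 88.1 per Mb (ratio 0.926, 0.890 to 0.962), and its median per segment was 93.5 in spanned and 98 in unspanned segments. At equal GC content the POU3F1 ratio of partly covered to unspanned segments turned to 1.14 in EpiSCs and 1.12 in activin-free EpiSCs.

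The 12 genes with the most bases inside gene-free segments encode mainly adhesion, synaptic and signaling proteins: Lrp1b, Ptprd, Auts2, Csmd1, Dlg2, Macrod2, Magi2, Nrxn3, Odz2, Pcdh15, Gpc5 and Erbb4. Erbb4 (ENSMUSG00000062209.8, chr1:68078760-69154633, minus strand), the receptor of neuregulins, had the highest POU3F1 density of them. Its 921241 bp inside a gene-free segment held 4 ZIC2, 17 OTX2, 44 SOX2, 96 POU5F1 and 217 POU3F1 peaks in EpiSCs, and 4, 31, 62, 168 and 195 in activin-free EpiSCs. Dlg2, which encodes a synaptic scaffold protein, had 173 POU3F1 peaks per Mb in EpiSCs, Gpc5, a glypican gene, had 171, and Lrp1b (chr2:40450768-42509118, minus strand), of the LDL receptor family, had 168. Auts2 (ENSMUSG00000029673.9, chr5:131913205-133019214, minus strand), a regulator of neuronal development, was unlike these. The 1 Mb of Auts2 inside a gene-free segment held 33 ZIC2, 72 OTX2, 26 SOX2, 20 POU5F1 and 20 POU3F1 peaks in EpiSCs, and 36, 87, 31, 41 and 22 in activin-free EpiSCs. The Auts2 segment was at 43.3% GC, and those of Erbb4, Dlg2, Gpc5 and Lrp1b were at 36.2 to 37.6%. All gene-free segments at 41% GC or more had 28.7 ZIC2, 30.5 OTX2 and 15.6 POU3F1 peaks per Mb in EpiSCs. Nrxn3, which encodes a presynaptic neurexin, held 11, 42, 45, 23 and 63 EpiSC peaks in 1 Mb, and Odz2, a teneurin gene, held 9, 38, 61, 52 and 98. Pcdh15, a protocadherin gene of sensory hair cells, and Csmd1 held 13 and 9 SOX2 peaks and 68 POU3F1 peaks each. Over these 12 genes the EpiSC POU3F1 density ranged from 20 to 235.6 per Mb. Other genes reaching into gene-free segments lay within that range, such as Csmd3 with 222.9 per Mb, or below it. Wwox had 7.98 and Spock1 0 POU3F1 peaks per Mb, with 46.8 and 71.5 ZIC2 peaks per Mb. Fstl5 had 5.84 and Trhde 6.09 POU3F1 peaks per Mb, with 0 ZIC2 peaks in both. All of these other genes were chosen after their values were seen.

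Of 31 long neuronal genes in a fixed list, 20 had part of their body in a gene-free segment and 24 had the first protein-coding start to 1 side of a run of such segments. For this list and the TF gene list below, the same shares over all 21418 protein-coding genes of chromosomes 1 to 19 were not computed. The counts thus describe the lists only. The runs beside the long genes varied widely. The segment beside the start of Ctnnd2 (a catenin gene) had 165 EpiSC POU3F1 peaks and the one beside the start of Gpc6 had 167, whereas those beside the starts of Cntnap2 and Dcc, genes of an axonal adhesion protein and of a netrin receptor, had 9 and 11. The body of Dcc covers 581609 bp of its segment, and that of Gpc5 covers 923659 bp of the segment beside Gpc6. These 4 are examples picked after the values were seen. The segments beside Cntnap2 and Dcc also had 2 and 1 SOX2 peaks and 1 and 2 POU5F1 peaks. Of 26 developmental TF genes known for wide gene-poor surroundings, none had its body in a gene-free segment, and 5 had the first protein-coding start to 1 side of a run: Dach1, Nr2f1, Nr2f2, Pou3f2 and Zeb2. The number of EpiSC POU3F1 peaks was 140 in the segment that Dach1 borders and 267 in the 2 segments that Nr2f1 borders. It was 85 beside Nr2f2, 139 beside Pou3f2 and 352 in the 3 segments beside Zeb2. Except for Zeb2, the start on the other side of the run was nearer. Klhl1 was at 81.7 kb and Dach1 at 569 kb, and Arrdc3 was at 22.6 kb and Nr2f1 at 661 kb. Arrdc4 was at 105.9 kb and Nr2f2 at 511.6 kb, and Mms22l was at 423.6 kb and Pou3f2 at 584.5 kb. Per segment the POU3F1 number was above the median of all gene-free segments (94.5) in these runs except that of Nr2f2. The Nr2f2 run was at 38.84% GC and the others at 36.65 to 37.48%. Gene-free segments under 37% GC had a median of 125. An effect of GC content was not tested for these runs, and the values describe them only. The Zeb2 run, which begins 27.1 kb from the start of this zinc finger homeobox gene at chr2:45000001-48000000, held 14 ZIC2, 34 OTX2, 149 SOX2 and 123 POU5F1 peaks in EpiSCs. In activin-free EpiSCs it held 16, 73, 211, 255 and 316 peaks of ZIC2, OTX2, SOX2, POU5F1 and POU3F1.

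The 3 segments with the most EpiSC peaks of each TF were different for ZIC2 and OTX2 on the one hand and POU5F1 and POU3F1 on the other. Those of ZIC2 were chr13:57000001-58000000 (59 peaks) beside Trpc7 and partly under Spock1, chr7:143000001-144000000 (51 peaks) between Mki67 and Mgmt, and chr8:117000001-118000000 (46 peaks), 87.7% of which is covered by Wwox. They were among the gene-free segments of highest GC content, at 45.2, 44.5 and 45.7%, and held 5, 29 and 7 POU3F1 peaks. The activin-free ZIC2 list had 56, 46 and 35 peaks in them. For OTX2 they were the Auts2 segment (72 peaks), chr6:93000001-94000000 (64 peaks, and 77 in activin-free EpiSCs) and chr2:161000001-162000000 (48 and 55 peaks). Magi1 covers 37.5% of the chromosome 6 segment and Ptprt 65.2% of the chromosome 2 segment. The GC content of these 3 OTX2 segments was 43.3, 41.8 and 41.9%. For POU5F1 the top 3 were the Erbb4 segment at chr1:68000001-69000000 (97 and 170 peaks), chr8:6000001-7000000 before Efnb2, which encodes an ephrin ligand (72 and 158 peaks), and chr7:98000001-99000000 within Dlg2 (68 and 133 peaks). The Erbb4 segment also ranked first for POU3F1 (221 peaks), followed by chr15:17000001-18000000 between the cadherin genes Cdh9 and Cdh10 (166 peaks in activin-free EpiSCs) and chr15:47000001-48000000, 58.8% of which is covered by Csmd3 (190 and 163 peaks). These 4 segments of POU5F1 and POU3F1 other than that of Dlg2 were at 35.8 to 36.8% GC.

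For SOX2, 2 of the 3 top segments, with 91 and 87 EpiSC peaks, were adjacent ones on chromosome 18 between Celf4 and Pik3c3, and the other was chr11:25000001-26000000 (86 peaks). The gene 5730522E02Rik covers 49.7% of this chromosome 11 segment, and Bcl11a starts 1021.9 kb from its border. Chromosome 18 stood apart in the EpiSC SOX2 list as a whole. It had 42.7 peaks per Mb, against 25.1 on the other chromosomes (ratio 1.70), and its 11 gene-free segments had 61.4 per Mb against 28.0. In the activin-free SOX2 list chromosome 18 had 37.8 per Mb against 34.8 (ratio 1.09), and the ratios of the POU5F1 and POU3F1 lists were 1.054 to 1.077. Without chromosome 18 the SOX2 density ratio in EpiSCs was 1.13 in place of 1.16. A cause was not tested.

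The 5 longest runs, with ties taken in genome order, also ranged from rich to poor in peaks. The run at chr1:102000001-106000000, of 4 segments between Cntnap5b and the cadherin gene Cdh20, held 35 ZIC2, 47 OTX2, 158 SOX2, 122 POU5F1 and 276 POU3F1 peaks in EpiSCs, or 69.0 POU3F1 peaks per Mb. The run of 4 segments between Celf4 and Pik3c3 held 21, 49, 306, 159 and 396. The Zeb2 run had 117 POU3F1 peaks per Mb, the run at chr1:114000001-117000000 between Dsel and Cntnap5a had 40.3, and that at chr3:42000001-45000000 before Pcdh10 had 6. The Pcdh10 run held in its 3 segments 2 ZIC2, 0 OTX2, 3 SOX2, 3 POU5F1 and 18 POU3F1 peaks in EpiSCs and 3, 1, 4, 29 and 33 in activin-free EpiSCs.

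Peaks of gene-free segments differed in shape from other peaks in a TF-specific way. ZIC2 peaks there were narrower, with a median width of 687 bp (quartiles 570 and 828) against 871 bp, and lower in score, with a median of 107 against 173. Only 0.498% (0.262 to 0.943) of them were wider than 2000 bp, against 8.12% in gene-containing segments. OTX2 peaks had a median width of 751 bp against 805 and a score of 85.0 against 100. SOX2 peaks were alike in both kinds of segment (737 and 725 bp, scores 99.4 and 96.0), and so were POU5F1 peaks in width (978 and 962 bp, scores 121 and 137). POU3F1 peaks were wider and higher in gene-free segments, with a median of 1125 bp against 1017 and a score of 227 against 189. Peaks over 2000 bp were 16.7% (16.2 to 17.2) of POU3F1 peaks there and 12.47% elsewhere. In segments of 37 to 39% GC these differences shrank: POU3F1 peaks had medians of 1123 and 1125 bp and scores of 229 and 230, and ZIC2 peaks had 669 and 707 bp and scores of 101 and 115. Under 37% GC the POU3F1 direction turned, with 1189 against 1227.5 bp, scores of 245 against 261 and 19.7 against 21.2% of peaks over 2000 bp. The ZIC2 medians also turned there, with 661 against 634 bp and scores of 97.5 against 94.9. The share of ZIC2 peaks over 2000 bp stayed lower, at 0.288 against 1.71%. Without regard to GC content the activin-free lists had the same directions as the EpiSC lists, with ZIC2 at 645.5 against 821 bp and POU3F1 at 1350.0 against 1201 bp.

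The spacing of peaks followed their density. The median gap between adjacent EpiSC midpoints in gene-free segments was longest for ZIC2, at 53.7 kb (quartiles 16.9 and 134 kb), and shortest for POU3F1, at 4.59 kb (2.42 and 10.4 kb), with OTX2 at 30.6, SOX2 at 15.2 and POU5F1 at 14.6 kb. In gene-containing segments the medians were 4.98, 8.88, 16.9, 18.9 and 5.61 kb. Gaps under 5 kb made up 9.95% of ZIC2 gaps and 53.0% of POU3F1 gaps in gene-free segments. The nearest protein-coding start was at a median of 571 kb from a ZIC2 midpoint and 563 kb from an OTX2 midpoint but 721 (SOX2), 726 (POU5F1) and 775 kb (POU3F1) from the others, and the share of midpoints over 1 Mb from any such start was 15.8, 15.1, 26.4, 25.3 and 28.5%. ZIC2 and OTX2 peaks thus lay nearer to the borders with genes than those of the other TFs. Starts of other transcripts lay within 1000 bp of 1.71% (1.21 to 2.42) of ZIC2 midpoints (31 peaks) and of 0.288 to 0.573% of those of the other TFs in EpiSCs.

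Numbers of peaks in the same gene-free segment were then compared between cultures, where each TF has 1 library a culture and a difference in depth cannot be told apart from one in binding. OTX2 had 1.87 (1.79 to 1.96) times as many peaks in activin-free EpiSCs as in EpiSCs in gene-free segments, but 1.07 (1.06 to 1.08) times as many in gene-containing segments. It had more peaks in 235 of 258 segments, the same number in 21 and fewer in 2, with a median difference of 10. Under 39% GC the ratio was 2.06 (1.95 to 2.18) in gene-free and 1.80 (1.74 to 1.86) in gene-containing segments, so the kinds of segment differed less at low GC content. With peaks of a score of at least 100 the ratios were 2.35 (2.19 to 2.52) and 1.23 (1.22 to 1.25). POU5F1 had more peaks in activin-free EpiSCs in all 258 segments, and its ratio was 2.31 (2.24 to 2.37) in gene-free and 1.96 (1.94 to 1.98) in gene-containing segments. For SOX2 the ratios were 1.35 (1.31 to 1.39) and 1.36 (1.34 to 1.37), for ZIC2 0.931 (0.871 to 0.996) and 0.894 (0.887 to 0.902), and for POU3F1 0.902 (0.885 to 0.919) and 0.906 (0.897 to 0.915).

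Segments were also counted where the number of peaks, divided by the mean of its list over segments, differed at least 2-fold between the cultures, among segments with at least 10 peaks in 1 of the lists. For OTX2, 74 of 190 gene-free segments were higher in activin-free EpiSCs (38.9%), when 7.48% of all segments were, and 0 were lower (0.709% of all). Of the 190, 65 passed the minimum through the activin-free list alone, and 49 of the 74 were among these. The other 25 were among 125 segments with at least 10 EpiSC peaks. Under 39% GC the share was 45.6% in gene-free and 26.1% in gene-containing segments. For POU5F1, 30 of 235 were higher (12.8%, and 3.38% of all segments), 27 of them with under 10 EpiSC peaks, and 0 were lower (0% of all). SOX2 had 6 of 205 higher (2.39% of all), all 6 among the 14 that passed through the activin-free list alone, and 2 lower (0.599% of all). POU3F1 had 3 of 235 higher (0.717% of all), 2 of them passing in that way, and 0 lower (0.165% of all), and ZIC2 had 0 of 65 in each direction (0.0519% of all in both).

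**Figure D4:**
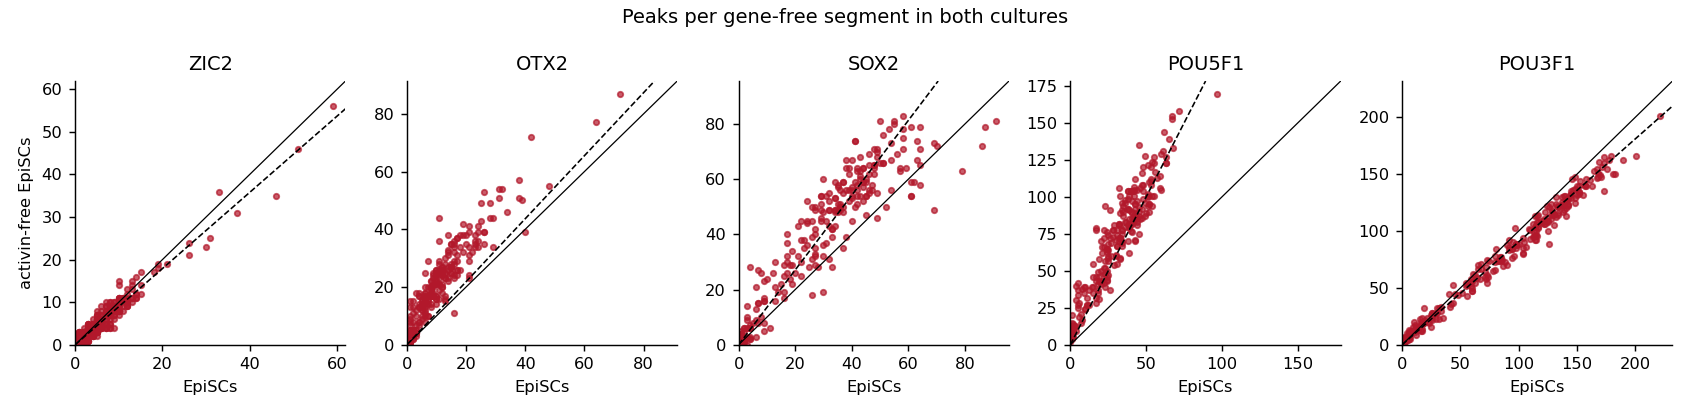
Peaks per gene-free segment in EpiSCs and activin-free EpiSCs, 1 panel for each TF and 1 point for each of the 258 segments. The solid line marks equal numbers and the dashed line the ratio of the list totals over all segments; OTX2 points lie mostly above the dashed line, POU3F1 and ZIC2 points along it.

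Most EpiSC peaks in gene-free segments had a counterpart of the same TF in activin-free EpiSCs. At 1 shared bp this was so of 73.8% (71.7 to 75.8) of ZIC2, 87.5% (86.2 to 88.7) of OTX2, 78.2% (77.2 to 79.1) of SOX2, 99.03% (98.8 to 99.2) of POU5F1 and 85.8% (85.3 to 86.2) of POU3F1 peaks. As a share of the activin-free list the values were 79.6, 45.5, 57.8, 41.3 and 89.0%. In gene-containing segments 69.2% of activin-free OTX2 peaks had an EpiSC counterpart, a difference of -23.8 percentage points (-25.1 to -22.4), but under 39% GC the shares were 41.8 and 47.6%. The ZIC2 difference was -11.9 points (-13.9 to -10.1) for activin-free peaks and -5.28 (-7.37 to -3.29) for EpiSC peaks, but under 39% GC the ZIC2 shares were 77.8 and 83.3% for activin-free peaks and 72.7 and 73.3% for EpiSC peaks. SOX2 shares differed by 0.581 points (-0.427 to 1.56). Peaks without a counterpart had lower scores for every TF, for instance 59.9 against 91.7 for EpiSC OTX2 and 112 against 598 for activin-free POU5F1.

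The 2845 OTX2 peaks found in activin-free EpiSCs alone held GGATTA in 23.1% of their windows, against 26.1% of the 2374 with an EpiSC counterpart, and their windows had a median of 37.8% GC against 40.8%. The 10158 POU5F1 peaks found in activin-free EpiSCs alone held ATGCAAAT in 4.89% and ATGCATAT in 6.29% of windows, against 6.36 and 8.36% of the 7151 with a counterpart. Both groups were above the flanking windows of their lists, which held GGATTA in 7.76% (OTX2) and the octamer words in 2.13 and 1.89% (POU5F1).

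Peaks of different TFs overlapped to very different extents. In EpiSCs 76.3% (75.4 to 77.3) of POU5F1 peaks in gene-free segments overlapped a POU3F1 peak, against 47.4% in gene-containing segments. This difference was present on 19 of 19 chromosomes but was 81.3 against 79.8% in segments under 39% GC. As a share of POU3F1 peaks the overlap was 24.5% in gene-free and 29.5% in gene-containing segments. SOX2 peaks overlapped POU3F1 peaks in 28.0% (27.0 to 29.0) and POU5F1 peaks in 9.70% (9.05 to 10.4) of cases, and OTX2 peaks overlapped POU3F1 peaks in 22.8% (21.3 to 24.4), against 6.58% in gene-containing segments. Under 39% GC these shares were 30.6 and 30.4% for SOX2 with POU3F1 and 29.6 and 27.1% for OTX2 with POU3F1, so they also followed GC content. ZIC2 and OTX2, which met often in gene-containing segments, met seldom here. An OTX2 peak overlapped a ZIC2 peak in 4.41% (3.71 to 5.23) of cases against 18.4%, and a ZIC2 peak overlapped an OTX2 peak in 6.91% (5.83 to 8.18) against 15.04%. These stayed apart under 39% GC, at 3.44 against 6.02% and 5.76 against 10.6%. In activin-free EpiSCs 67.2% of POU5F1 peaks overlapped POU3F1 and 52.9% of POU3F1 peaks overlapped POU5F1. OTX2 peaks overlapped POU5F1 peaks in 18.9% of cases there, against 8.03% in EpiSCs. This rise was not limited to gene-free segments. Under 39% GC the shares in gene-free and gene-containing segments were 9.23 and 9.93% in EpiSCs and 21.44 and 21.65% in activin-free EpiSCs. The whole POU5F1 list held 62457 peaks in EpiSCs and 126908 in activin-free EpiSCs, and the effect of list size was not tested.

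When overlapping peaks of the 5 EpiSC lists were merged, the gene-free segments held 32674 sites. Of these 77.1% (76.6 to 77.5) held a peak of 1 TF, 19.6% of 2, 3.01% of 3, 0.275% of 4 and 8 sites of all 5. The commonest sites were those of POU3F1 alone (46.6%), SOX2 alone (15.5%), POU5F1 with POU3F1 (13.5%), OTX2 alone (5.57%), POU5F1 alone (4.86%) and ZIC2 alone (4.48%). In gene-containing segments the commonest were ZIC2 alone (29.0%), OTX2 alone (20.6%) and POU3F1 alone (14.9%). The activin-free lists gave 36612 sites, of which 64.3% held a peak of 1 TF. POU5F1 with POU3F1 (22.1%) and POU3F1 alone (22.0%) were the commonest, and 28 sites held peaks of all 5 TFs.

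The windows at the midpoints, 100 bp to either side as in those printed above, differed from their surroundings in composition and words. ZIC2 windows in gene-free segments had a median of 53.7% GC in EpiSCs, when windows 1000 bp to either side had 38.8%. OTX2 windows had 41.3% against 39.3%, SOX2 windows 36.8% against 37.3%, POU5F1 windows 32.3% against 36.3% and POU3F1 windows 32.3% against 36.3%. Within AT-rich segments ZIC2 windows were thus the richest in GC and those of the POU factors the poorest, POU5F1 and POU3F1 having the same median, and the quartile ranges of OTX2 (38.3 to 44.8%) and SOX2 (34.3 to 39.8%) overlapped.

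CAGCAGG was found in 20.6% (18.8 to 22.6) of EpiSC ZIC2 windows in gene-free segments, in 3.51% of flanking windows and in 2.38% of all 1277351 windows of the same length that tile these segments. The share of ZIC2 windows in gene-containing segments was 19.1%, a difference of 1.57 percentage points (-0.246 to 3.51). GGATTA was found in 27.6% (26.0 to 29.3) of OTX2 windows, 8.21% of flanking windows and 7.76% of all windows, and in 23.4% of OTX2 windows of gene-containing segments. ACAAAG or ACAATG was found in 55.2% (54.0 to 56.3) of SOX2 windows, 31.5% of flanking and 30.9% of all windows. SOX2 windows of gene-containing segments had 57.7%. The ZIC2 and OTX2 peaks of gene-free segments, though few, thus held the word of their TF more often than flanking windows, and under 39% GC the shares were close to those of gene-containing segments (19.1 and 18.4% for ZIC2, 28.4 and 27.4% for OTX2). The activin-free lists gave 22.7% for ZIC2, 24.5% for OTX2 and 54.9% for SOX2.

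The octamer ATGCAAAT was found in 7.21% (6.64 to 7.81) of POU5F1 and 4.57% (4.30 to 4.85) of POU3F1 windows, against 2.25 and 2.12% of flanking windows and 2.38% of all windows. ATGCATAT was found in 9.92% (9.27 to 10.6) of POU5F1 and 4.03% (3.78 to 4.29) of POU3F1 windows, against 1.68% of all windows. POU5F1 windows also held alternating stretches of purines and pyrimidines of at least 20 bp in 17.6% (16.8 to 18.5) of cases, against 4.57% of flanking and 3.62% of all windows, and against 32.1% of POU5F1 windows in gene-containing segments. Under 39% GC the POU5F1 windows came to 15.02% in gene-free and 14.4% in gene-containing segments. POU3F1 windows did not have this excess (3.52% against 4.64% of flanking windows). The words and the alternating stretches can share bases, as the printed POU5F1 window shows. Most POU3F1 windows held neither octamer word, and a window without a match says only that these letters are not in that window.

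**Figure D5:**
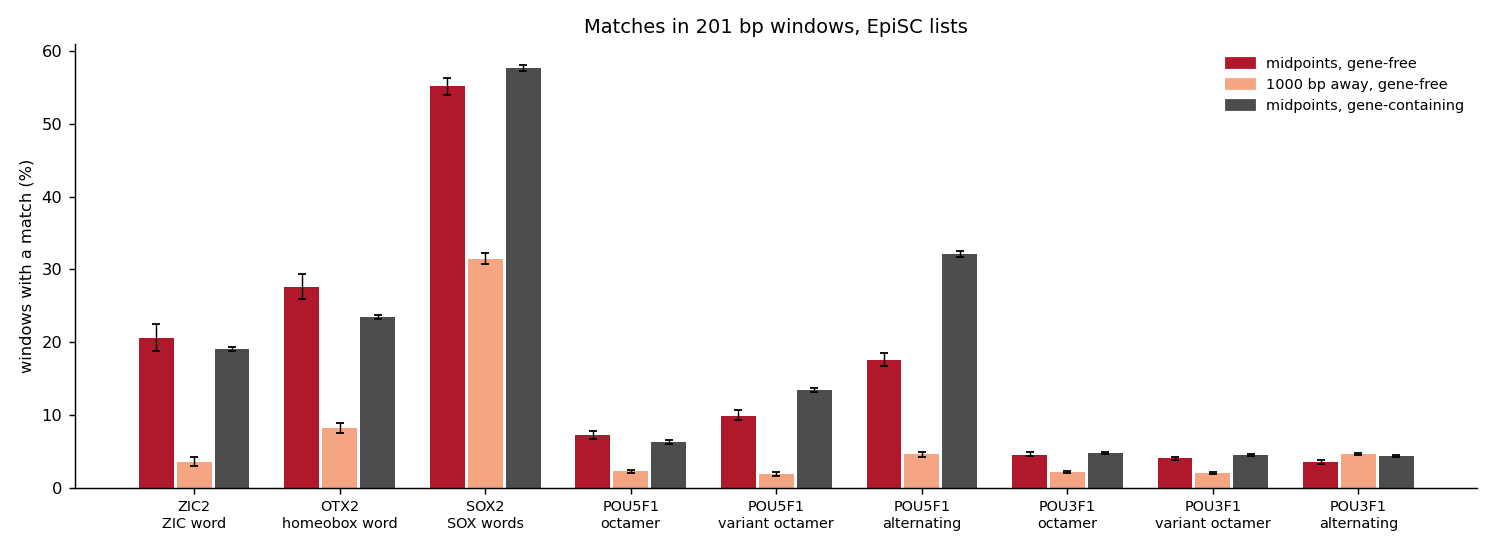
Share of windows (100 bp to either side) with a match in the EpiSC lists, at peak midpoints in gene-free segments (red), 1000 bp to either side of them (light) and at peak midpoints in gene-containing segments (gray), with 95% Wilson intervals. The ZIC word is CAGCAGG, the homeobox word GGATTA, the SOX words ACAAAG or ACAATG, the octamer ATGCAAAT, the variant ATGCATAT, and alternating means a stretch of at least 20 bp of alternating purines and pyrimidines; midpoints exceed their flanks in each pair except POU3F1 alternating.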

How the data were processed

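Peak lists of 5 TFs in EpiSCs and activin-free EpiSCs, 1 library each, were analysed; the input library was not analysed here. According to the study's methods, reads were aligned to the mm9 build by Bowtie2, and the authors used MACS, with a band width of 150 and the input as control, to call peaks. The deposited value of each peak is a score, -10 log10 of its p-value, without read counts, so depth is unknown and weak peaks may be missed. The members, words and gene lists were chosen with earlier results of these data known. Peaks were assigned by midpoint to 1 Mb segments, and densities are per Mb of sequenced bases. Exact Poisson, exact conditional, Wilson and Newcombe 95% intervals cover counting error only. Named segments were the 3 with the most EpiSC peaks of each TF and the 5 longest runs; named genes were the 12 with the most bases in gene-free segments and members of 2 lists; the quiet pairs were chosen after their values were seen. Printed sequences were not taken from chromosome 18. The share of unique words counts sampled 32-base words that occur once in mm9. The functions were tested on simulated data. GC-standardised ratios, classes by POU3F1 count and values without chromosome 18 were added after the data were seen. Python 3.11.15, numpy 2.4.6, pandas 2.3.3, scipy 1.17.1 and matplotlib 3.10.9 were used.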

Additional observations from a re-analysis of the deposited data

How the results depend on the processing

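Each alternative is given for the density ratio of gene-free to gene-containing segments in the order ZIC2, OTX2, SOX2, POU5F1 and POU3F1 unless TFs are named. The cause of the changes was not tested, and every ratio was under 1 for ZIC2 and OTX2. Segments of 500 kb gave 1099 gene-free segments and ratios of 0.187 (ZIC2), 0.295 (OTX2) and 1.27 (POU5F1) in EpiSCs and 0.189, 0.477 and 1.196 (ZIC2, OTX2, SOX2) in activin-free EpiSCs. Shifting segments by 500 kb gave 0.136, 1.24 and 2.33 (ZIC2, POU5F1, POU3F1) and 0.141, 1.196, 1.44 and 2.33 (ZIC2, SOX2, POU5F1, POU3F1). The 44 segments without any annotated start gave 0.103, 0.207, 0.871, 0.977 and 1.63 in EpiSCs and 0.116, 0.358, 0.874, 1.14 and 1.64 in activin-free EpiSCs, which turned the direction for SOX2, while the interval of EpiSC POU5F1 (0.919 to 1.04) included 1. The 191 segments without gene bodies gave 0.107, 0.183, 1.09, 1.13 and 2.20, and 0.113, 0.342, 1.08, 1.35 and 2.20. Scores of at least 100 gave 0.0991, 0.183, 1.22, 1.12 and 2.39, and 0.107, 0.349 and 2.40 (ZIC2, OTX2, POU3F1). The 50000 highest peaks gave 0.0593, 0.181, 1.16 and 2.61, and 0.0776, 0.323, 1.32 and 2.57 (without SOX2, which moved little). Summed width gave 0.0869, 0.208, 1.196, 1.23 and 2.49, and 0.0929, 0.374, 1.54 and 2.53 (without SOX2). Alternatives chosen after seeing the data were the expectation from GC content, which turned SOX2, POU5F1 and POU3F1 below 1 (0.698, 0.690, 0.920, 0.897 and 0.940, and 0.730, 0.782, 0.912, 0.925 and 0.946), leaving out chromosome 18 (EpiSC SOX2 1.13), and leaving out segments with few unique words or immunoglobulin genes (3 gene-free and 70 gene-containing), which moved no ratio beyond its interval.

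The share of EpiSC peaks with an activin-free counterpart became 85.1% for POU3F1 with segments of 500 kb. It became 75.9, 98.2 and 84.7% (SOX2, POU5F1, POU3F1) without any annotated start, and 76.4, 92.0, 99.7 and 87.0% (all but SOX2) at scores of at least 100. It became 87.7, 85.7, 67.9, 86.7 and 88.8% with the 50000 highest peaks, and 76.0, 71.6, 82.0 and 73.2% (all but ZIC2) at 50% shared length. The other 45 shares were those of TF pairs and of activin-free peaks with an EpiSC counterpart. At 50% shared length all 45 left their intervals, by -29.5 to -0.449 percentage points (median -5.27). With the 50000 highest peaks 41 did, by -14.9 to 34.2 points, and at scores of at least 100 35 did, by -7.005 to 0.746 points. No paired analysis was possible because each group holds 1 library and the results come from no test. Depth is unknown, so an absent peak cannot be told apart from one below the threshold of its list.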

Other observations

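Chromosome X was left out of the comparison above and has 19 gene-free segments with a peak, at a median of 37.2% GC. Their peak densities per Mb in EpiSCs were 4.89 (ZIC2), 4.05 (OTX2), 13.3 (SOX2), 17.0 (POU5F1) and 75.7 (POU3F1). The densities were lower than in gene-free segments of chromosomes 1 to 19 for all 5 TFs. The ratios to gene-containing segments of chromosome X were 0.353 (0.284 to 0.435), 0.311 (0.244 to 0.391), 1.06 (0.926 to 1.21), 1.07 (0.948 to 1.201) and 1.70 (1.61 to 1.80). In activin-free EpiSCs they were 0.343, 0.522, 1.10, 1.26 and 1.76. The number of X chromosomes in these cells was not examined here.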
